A study of Mus musculus with 2 samples.

Results

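The genes examined were the ligands and receptors of the tumour necrosis factor (TNF) superfamilies that the array measures. They were chosen by name, as the genes called Tnfrsf or Tnfsf with a number together with Tnf, Lta, Ltb, Ltbr, Fas, Fasl, Cd40, Cd40lg, Cd27, Cd70 and Ngfr, and they comprised 41 genes (25 receptors and 16 ligands) of 30153 genes on the array, read by 52 of 39390 probes. RNA was compared between 2 cell samples of Sox9-EGFP mice, whose cells that express Sox9 carry GFP. The first was mature hepatocytes (MHs) of healthy liver, obtained by collagenase perfusion, low-speed centrifugation and a Percoll gradient. The second was Sox9+EpCAM- cells, sorted by FACS as GFP+EpCAM- cells after feeding of DDC, which injures bile ducts chronically, and called biphenotypic hepatocytes in the study because they carry features of hepatocytes and of bile duct cells. Both samples are labelled as male, and the number of mice behind each and their ages are not given in the sources used here. The RNAs were labelled with Cy3 and read on 1 Agilent array each, and with 1 array per group no value has an SD across samples or a test. The comparison addresses how gene expression differs between biphenotypic hepatocytes and MHs, and diet, sorting and cell type differ together between the arrays and cannot be told apart.

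TNF superfamily ligands are mostly membrane-bound trimers that can be shed, and each one clusters its receptors on the surface of the receiving cell. Receptors with a death domain recruit TRADD or FADD and can lead to caspase activation, other receptors recruit TRAF proteins and activate NF-kB, and decoy receptors bind ligand without a death signal. In the liver, TNF primes hepatocytes for regeneration or kills them, Fas ligand kills hepatocytes, and TRAIL can do so in some conditions. TWEAK acting on its receptor Fn14 is known for expanding progenitor cells and ductules.

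Processed intensities are given as the scanner software computed them, after subtraction of background. Log2 levels and differences were scaled to each array's 75th percentile, which was 741 for MHs and 1110 for Sox9+EpCAM- cells, so that equal intensities on both arrays give a log2 difference below 0. The scanner software flags each spot as well above background or not, and a probe without the flag on an array is called dim there and has only a bound, set at the lowest signal well above background (27.8 for MHs and 18.4 for Sox9+EpCAM- cells) or its own signal if higher. No spot was saturated, and the median SD between spots of a probe printed at least 8 times was 0.08 on the log2 scale on either array, which covers the spots and not mice. On each array, RNA values went against the label in 1 respect. On the MH array it was the sex. Xist, the RNA of the inactive X chromosome, had an intensity of 1940 on it and of 16.1, which is dim, on the other array, whereas the Y-linked genes Ddx3y, Kdm5d, Eif2s3y and Uty were dim on the MH array and reached 140 to 642 on the Sox9+EpCAM- array. Sex and diet therefore cannot be told apart either. All 8 hepatocyte markers were well above background on both arrays, with Alb at 207000 and 170000 and Hnf4a at 4990 and 6360. All 8 were lower in Sox9+EpCAM- cells after scaling, from 1.18-fold for Hnf4a to 381-fold for Cyp3a11. RNA of Epcam, whose protein was excluded in the sort, was 139 in MHs and 2770 in Sox9+EpCAM- cells at its 1 probe. This is 13.3-fold higher after scaling and goes against the EpCAM- label, although the sort gated surface protein and the array reads RNA. By quantitative PCR with MHs of DDC-fed mice, the study found no upregulation of Epcam in such cells split by the surface protein CD24. Sox9 itself was dim in MHs at 8.52 and read 60.2 in Sox9+EpCAM- cells, at least 1.45-fold higher. Its RNA was thus low on that array, though in the direction of the label. The name Sox9+EpCAM- is kept here as the label of the sorted cells.

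Of the 41 members, 26 were well above background in both samples, 6 in Sox9+EpCAM- cells alone, 1 in MHs alone and 8 in neither. Among the 33 members well above background on at least 1 array, 1 was higher by at least 4-fold in Sox9+EpCAM- cells, where 5.59% of 23417 genes were, and 0 were at least 4-fold lower, where 5.57% were. The member above 4-fold was Tnfrsf12a, which encodes Fn14, the receptor of TWEAK. At 2-fold, 5 members were higher against 14.2% of all genes, and 5 were lower against 16.7%. These shares are near those of the whole array. The median log2 difference of the 26 members measured on both arrays was -0.19, and it was also -0.19 over all 19235 genes measured on both. Receptors had a median of -0.46 (19 genes) and ligands of -0.14 (7 genes), within a range from -1.71 to 3.17 for receptors and from -0.96 to 0.45 for ligands. Fewer cells of a type and less RNA per cell cannot be told apart in such bulk samples.

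**Figure D1:**
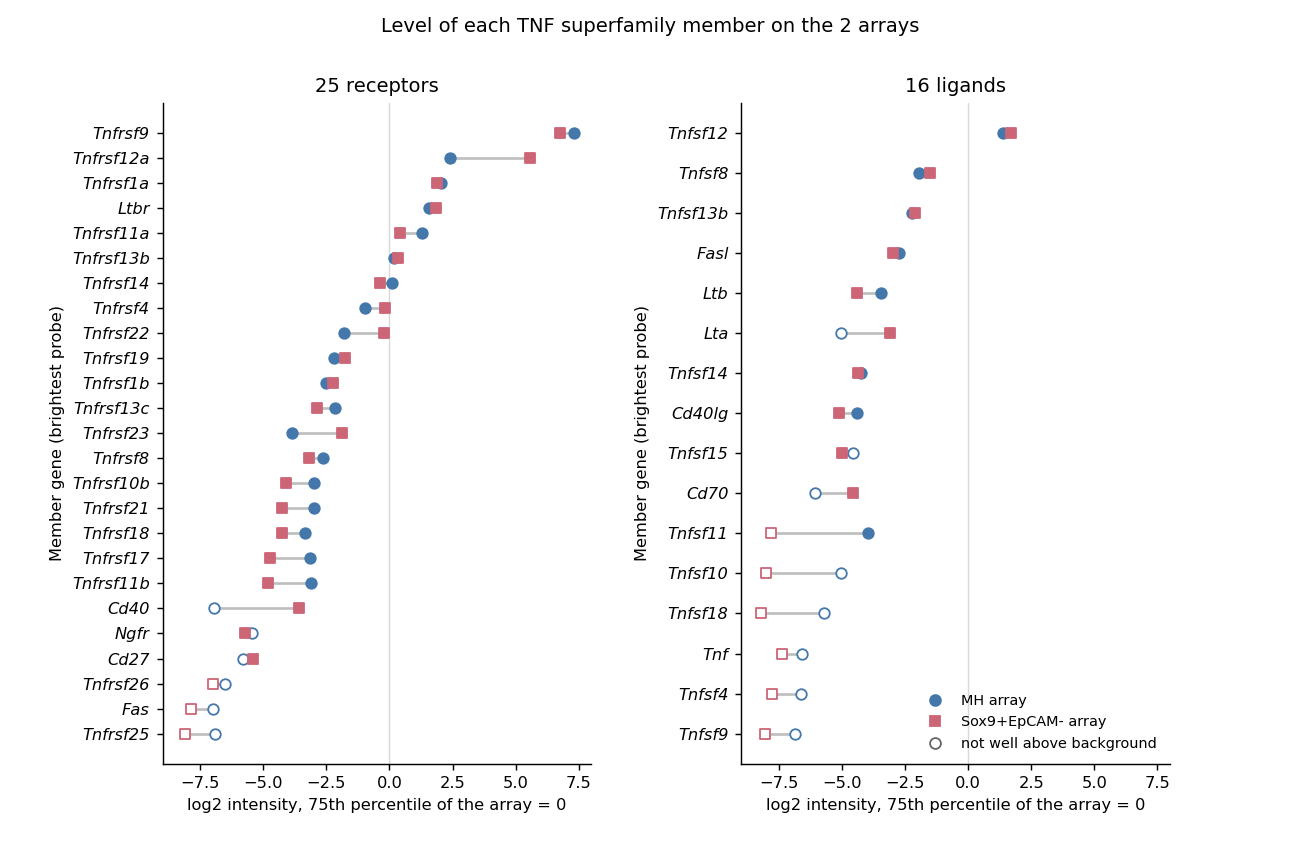
Log2 intensity (75th percentile of the array at 0) of the brightest probe of each of the 25 receptors and 16 ligands on the MH array (circles) and the Sox9+EpCAM- array (squares), with open symbols where the probe was dim. Each line joins the 2 values of 1 gene, and the longest line between filled symbols is that of Tnfrsf12a, from 2.38 to 5.56; levels of different genes come from different probes and are not comparable.

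Tnfrsf12a was read by 1 probe, which lies at chr17:23812746-23812805 (mm9, minus strand). The opening 30 bases of its 60 are shown to identify the measurement on which the main member difference rests.

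Tnfrsf12a probe: agccttccaaggtgtccaattgccctatct

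Its intensity was 3860 ± 386 in MHs and 52200 ± 5220 in Sox9+EpCAM- cells, where ± is the error that the scanner software attaches to a single spot. After scaling it was 3.17 higher on the log2 scale, or 9.03-fold. The gene was thus measurable in MHs and much brighter in the Sox9+EpCAM- cells, and the log2 difference stayed above the 4-fold limit, and reached at most 3.55, under the other scalings, background correction and probe rules.

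Tnfsf12, the ligand TWEAK, had 2 probes that went in opposite directions. The brighter probe read 1940 ± 194 in MHs and 3620 ± 362 in Sox9+EpCAM- cells, for a log2 difference of 0.32. The other, which lies nearer the 3′ end of the gene (chr11:69500342-69500401, mm9, minus strand), read 1590 and 1150, a difference of -1.05. TWEAK RNA was therefore well above background in both samples, and its direction depended on the probe.

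The stretch upstream of Tnfrsf12a is shown because this gene had the main difference among the members. RefSeq lists its start on the minus strand of chromosome 17, and the 250 bases before it lie at chr17:23677450-23677699 (GRCm38.p6). Capitals mark the hexamer GGGCGG, the GC box, on either strand.

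Tnfrsf12a upstream: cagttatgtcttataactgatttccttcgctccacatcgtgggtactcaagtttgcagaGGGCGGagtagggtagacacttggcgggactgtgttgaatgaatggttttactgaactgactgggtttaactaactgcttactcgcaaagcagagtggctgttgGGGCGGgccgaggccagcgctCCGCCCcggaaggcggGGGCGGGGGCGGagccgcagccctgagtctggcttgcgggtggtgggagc

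It held 5 GC boxes, a hexamer found in 32.7% of 32851 RefSeq windows of the same length. Neither the AP-1 motif TGANTCA, bound by Fos and Jun dimers and present in 6.75% of windows, nor the kappa B consensus, present in 3.9%, was matched in it. There were 35 windows for 31 of the members, and GGGCGG was found in 15 of the 35. TGANTCA was found upstream of Fas, Tnfrsf8, Tnfrsf9, Tnfsf13b and Tnfsf14, and the kappa B consensus upstream of Ltb, Tnfrsf8 and Tnfrsf9. Both strands were searched, and the marked hexamers did not overlap a match of another motif.

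Among members measured on both arrays, the next larger increases were those of Tnfrsf23 and Tnfrsf22, neighbours on mouse chromosome 7 that encode decoy receptors of TRAIL. Like other receptors of the family they bind ligand through extracellular repeats rich in cysteine. The probes that carry the differences, and the brighter probe of Tnfrsf14 described further on, are shown with the cysteine codons TGT and TGC in capitals, in the reading frame without a stop codon that holds most of them.

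Tnfrsf23 probe: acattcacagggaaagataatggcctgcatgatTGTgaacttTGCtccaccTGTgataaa

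Tnfrsf22 probe: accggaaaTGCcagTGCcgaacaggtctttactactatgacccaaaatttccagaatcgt

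Tnfrsf14 probe: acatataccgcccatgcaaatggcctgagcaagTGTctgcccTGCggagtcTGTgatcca

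The Tnfrsf23 probe (chr7:150865851-150865910, mm9, minus strand) read 51.0 ± 7.84 in MHs and 303 ± 30.5 in Sox9+EpCAM- cells, for a log2 difference of 1.99, or 3.97-fold, just under the 4-fold limit. A second Tnfrsf23 probe was dim in MHs at 5.57 and read 26.8 in Sox9+EpCAM- cells, too near background for a fold. The increase of Tnfrsf23 therefore rests on 1 probe, and under normexp background correction it was 1.21 on the log2 scale. Tnfrsf22 read 215 ± 22.2 and 954 ± 95.5 at the probe shown (chr7:150826673-150826732, mm9, minus strand), a difference of 1.57 on the log2 scale, or 2.96-fold. At its other probe, nearer the 3′ end (chr7:150823394-150823453), it read 223 and 273, a difference of -0.29. So the increase of Tnfrsf22 was seen at 1 of its 2 probes. Tnfrsf26, the remaining decoy-type gene of this cluster (chr7:150793990-150794049), was dim on both arrays. These genes are close relatives, and although none of their probes has 20 bases in a row in common with any other gene's probe, binding of a probe to the transcript of a relative was not tested.

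Of the receptors that can start cell death, Tnfrsf10b, the TRAIL receptor DR5, read 93.9 ± 11.4 in MHs and 64.5 ± 7.81 in Sox9+EpCAM- cells, for a log2 difference of -1.12. Tnfrsf21, death receptor 6, read 91.9 and 57.8, a difference of -1.25. Both lay lower by more than 2-fold after scaling, but not under normexp (-0.76 and -0.79) or with scaling to Gapdh (-0.86 and -0.99). Fas was dim on both arrays at 5.74 and 4.71, and so was Tnfrsf25, the receptor DR3. Each was read by 1 probe with 1 spot, so absent RNA and a probe that fails to bind cannot be told apart. Ngfr, the p75 neurotrophin receptor, was dim in MHs (13.2 to 25.5 over 7 usable spots) and near the detection limit in Sox9+EpCAM- cells (12.4 to 29.2, with 4 spots well above background), so no fold could be given. The death ligands were read as well. Fasl, the Fas ligand, read 109 and 140, a log2 difference of -0.22, whereas Tnfsf10, which encodes TRAIL, was dim on both arrays at 22.7 and 4.33. Tnfsf15, the ligand TL1A of DR3, was dim in MHs at 30.9 and read 34.7 in Sox9+EpCAM- cells, with no fold.

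Tnf itself was not detectable at this sensitivity. Its probe was printed 10 times, and all spots were dim on both arrays, from 5.65 to 15.5 in MHs and from 3.65 to 14.9 in Sox9+EpCAM- cells. Its chromosome 17 neighbour Lta, lymphotoxin alpha, was also printed 10 times. Lta read 23.9 ± 7.73 (SD over 10 spots) in MHs, with 2 spots well above background, and 128 ± 8.41 in Sox9+EpCAM- cells, with all 10 well above. The spots of the arrays did not overlap, from 6.71 to 33.3 against 115 to 143, and Lta was higher in Sox9+EpCAM- cells by at least 3.08-fold. Under normexp, which raises low signals by an offset, its log2 difference of at least 1.62 became 0.52. Ltb, the lymphotoxin beta subunit encoded beside them, read 67.4 ± 8.97 and 52.0 ± 6.53, a log2 difference of -0.96. The 3 ligands of this locus thus gave 3 different patterns.

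**Figure D2:**
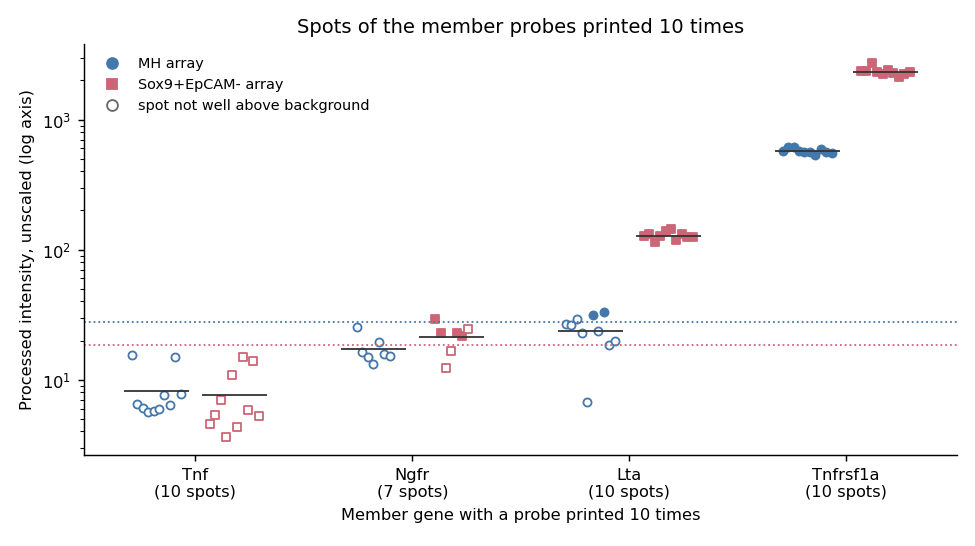
Unscaled processed intensity (log axis) of every usable spot of the 4 member probes printed 10 times, on the MH array (circles, left) and the Sox9+EpCAM- array (squares, right), with open symbols for dim spots, bars for means and dotted lines at the lowest signal well above background on each array. All spots of Tnf lie below both dotted lines, those of Lta separate (at most 33.3 against at least 115) and those of Tnfrsf1a separate (at most 617 against at least 2120).

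The receptors of these ligands were well above background in both samples. Ltbr, the lymphotoxin beta receptor, read 2200 ± 220 in MHs and 4030 ± 403 in Sox9+EpCAM- cells, for a log2 difference of 0.29. Tnfrsf1a, the TNF receptor with a death domain, gave opposite results at its 2 probes. The brighter one read 3040 ± 304 and 4100 ± 410, a difference of -0.15. The other, printed 10 times and further 3′ on chromosome 6 (chr6:125312376-125312435, mm9, plus strand), read 576 ± 24.8 and 2340 ± 164 (SD over 10 spots), a difference of 1.44, or 2.71-fold. The difference of the second probe was far beyond the spread of its spots, and it was not seen at the first. Tnfrsf1b, the TNF receptor without a death domain, read 129 ± 14.2 and 233 ± 23.7, a difference of 0.27. Receptors for TNF and lymphotoxins were therefore measured in both samples, with Tnf dim in both.

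RANK and its ligand act in bone and lymph nodes. The 3 members of this axis had log2 differences below 0, as 11520 of the 19235 genes measured on both arrays did. Tnfsf11, the ligand RANKL, read 47.3 ± 8.77 in MHs and was dim at 4.88 in Sox9+EpCAM- cells, which made it at least 3.85-fold lower. Tnfrsf11b, the soluble decoy receptor osteoprotegerin, read 85.4 ± 11.7 and 39.2 ± 6.50, a log2 difference of -1.71, or 3.26-fold lower. Tnfrsf11a, the receptor RANK, read 1830 ± 184 and 1480 ± 148, a difference of -0.89. None of the 3 reached the 4-fold limit in the main scaling with the bound. With the bound kept, Tnfsf11 passed it under quantile normalization (-2.21) and with the deposited table (-2.12). Under normexp Tnfsf11 was at -0.95 and Tnfrsf11b at -1.07.

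The BAFF system, which keeps B cells alive, had 4 members. Tnfsf13b, the ligand BAFF, read 158 ± 17.0 in MHs and 255 ± 25.8 in Sox9+EpCAM- cells, for a log2 difference of 0.11. Of its receptors, Tnfrsf17, which encodes BCMA, read 84.0 ± 10.2 and 41.6 ± 5.65, a difference of -1.60, and Tnfrsf13c, the BAFF receptor, read 166 and 153 at its brighter probe, a difference of -0.70, and was dim at the other. Tnfrsf13b, which encodes TACI, had 3 probes with differences of 0.13 (848 and 1390, the brightest), 1.01 (129 and 389) and -0.85 (40.3 and 33.5). The probes of TACI thus did not settle a direction.

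Among the receptors that costimulate lymphocytes, Cd40, which acts on B cells and antigen-presenting cells, was dim in MHs at 6.03 and read 91.8 ± 10 in Sox9+EpCAM- cells, higher by at least 2.2-fold, though by 0.28 on the log2 scale under normexp. Tnfrsf4, the receptor OX40, read 382 ± 38.7 and 990 ± 99.1, a log2 difference of 0.79. Tnfrsf18 (GITR) read 73.5 and 58.3, a difference of -0.92, and Tnfrsf8 (CD30) read 120 and 122, a difference of -0.56. Calls at 2-fold in this class depended on the scaling: Cd40 was at 0.93 on the log2 scale with quantile normalization, where Tnfrsf18 was at -1.11, and Tnfrsf4 was at 1.06 with scaling to Gapdh. Cd27, a receptor of T cells, read 25.8 in Sox9+EpCAM- cells at 1 of its 2 probes and was otherwise dim, with no fold.

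Tnfrsf14, which encodes HVEM, was also split between its probes. The brighter one, shown above (chr4:154300709-154300768, mm9, minus strand), read 788 ± 79.1 in MHs and 857 ± 85.8 in Sox9+EpCAM- cells, for a log2 difference of -0.46. The one nearer the 3′ end (chr4:154296319-154296378) read 324 ± 33.2 and 86.4 ± 9.80, a difference of -2.49, or 5.62-fold lower. Both were lower after scaling, and 1 of them passed the 4-fold limit. Its ligand Tnfsf14, called LIGHT, read 39.4 ± 8.62 and 53.4 ± 7.37, a difference of -0.14. Tnfrsf19, the orphan receptor TROY, read 161 and 329 at the probe with the higher mean log2 level, a difference of 0.45, and 198 and 222 at the other, a difference of -0.42.

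For the other costimulatory ligands, no difference or bound reached 2-fold. Tnfsf8, the CD30 ligand, read 190 ± 20 in MHs and 389 ± 39.1 in Sox9+EpCAM- cells, for a log2 difference of 0.45. Cd40lg, the CD40 ligand of activated T cells, read 35.3 ± 6.72 and 31.5 ± 4.94, a difference of -0.75. Cd70, the ligand of CD27, was dim in MHs at 11.0 and read 46.3 ± 5.95 in Sox9+EpCAM- cells, at least 1.11-fold higher. Tnfsf4 (OX40 ligand), Tnfsf9 (4-1BB ligand) and Tnfsf18 (GITR ligand) were dim on both arrays. Ptprc, the pan-leukocyte marker CD45, read 195 and 248, a difference of -0.24, and of 9 markers of T and NK cells 7 were well above background on each array, at summed levels of 0.891 and 1.14 times the 75th percentile, with Cd3d and Cd3g dim on both. In that list Ncr1 was 4.92-fold higher (51.6 and 380), Cd8a was 2.01-fold higher, and Klrb1c and Gzma were lower by 2.76-fold and 2.03-fold. Their part in the costimulatory genes was not tested.

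Tnfrsf9, the receptor 4-1BB, had the member probe with the highest intensity, and it is shown because of its sequence. The last 30 bases of this probe (chr4:150319582-150319641, mm9, plus strand) end in a dinucleotide repeat, in capitals.

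Tnfrsf9 probe end: taaaatcaGTGTGTGTGTGTGTGTGTGTGT

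The repeat is 22 bases long, and the probe shared stretches of 20 bases with probes of 51 other genes, while none of the other 51 member probes shared such a stretch with another gene. Over the whole array 7.19% of 39429 probes shared one. The Tnfrsf9 probe read 118000 ± 11800 in MHs and 120000 ± 12000 in Sox9+EpCAM- cells, for a log2 difference of -0.56. The 51 probes that share its bases were well above background on both arrays, with a median difference of -0.55, and 50 of the 51 were below 0. The second Tnfrsf9 probe (chr4:150319101-150319160), without a shared stretch, was dim in MHs at 16.4 and read 37.6 in Sox9+EpCAM- cells, with no fold. The level of Tnfrsf9 at its brighter probe is therefore uncertain.

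Disagreement between probes recurred among the members. Of the 10 members with several probes, 6 had at least 2 probes well above background on both arrays, and in 5 of these the log2 differences of the probes were at least 1 apart, where 39.8% of 4001 such genes of the array were. The range was from 0.87 for Tnfrsf19 to 2.03 for Tnfrsf14. Whether the probes of a gene lie in different exons or transcript forms was not assigned, since no mm9 annotation was used here.

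**Figure D3:**
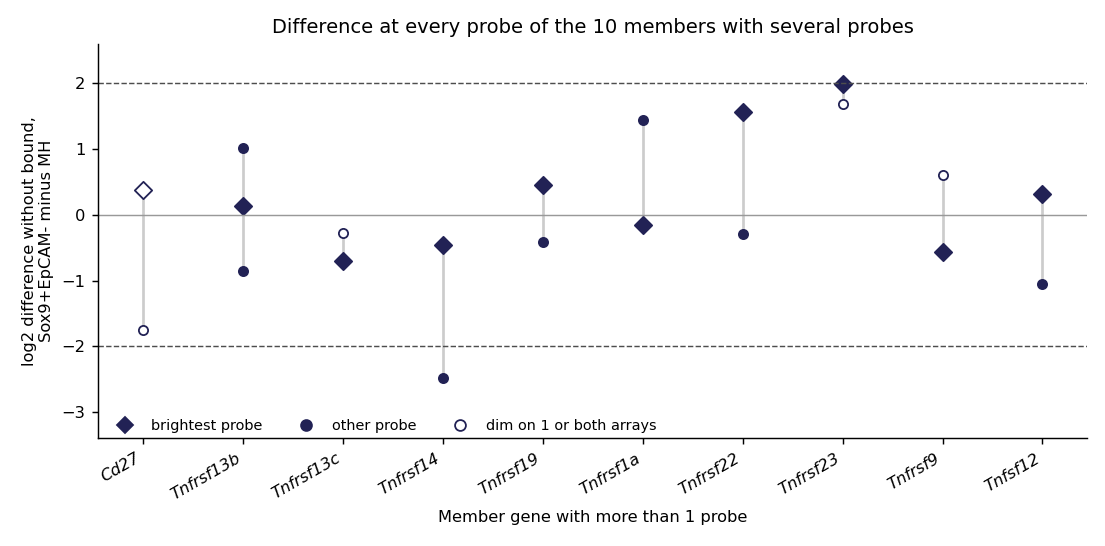
Log2 difference without a bound, Sox9+EpCAM- minus MH, at every probe of the 10 members with more than 1 probe, with diamonds for the brightest probe, circles for others, open symbols for probes dim on 1 or both arrays and dashed lines at 4-fold. Probes of Tnfrsf1a (-0.15 and 1.44), Tnfrsf22 (1.57 and -0.29) and Tnfsf12 (0.32 and -1.05) lie on both sides of 0.

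**Figure D4:**
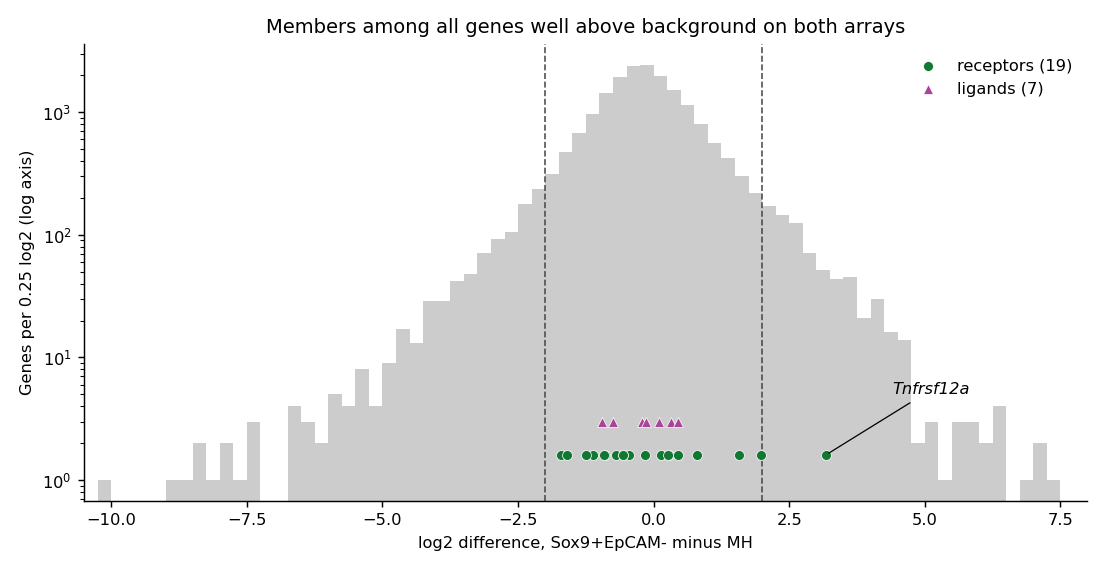
Number of genes (log axis) by log2 difference, Sox9+EpCAM- minus MH, for the 19235 genes well above background on both arrays (grey), with the 19 receptors (circles) and 7 ligands (triangles) measured on both drawn at fixed heights and dashed lines at 4-fold. Tnfrsf12a, at 3.17, is the member outside the lines.

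The same comparison was read for genes that act around the ligands and receptors. For the counts in these lists and in the marker lists below, the shares over all 23417 genes were 5.59% at least 4-fold higher and 5.57% lower. At 2-fold the shares were 14.2% higher and 16.7% lower. Of the superfamily members outside the naming rule, Relt, a receptor expressed in blood-forming tissue, read 105 and 410, a log2 difference of 1.38, Eda, the ectodysplasin ligand, differed by -0.17, and the ectodysplasin receptors Edar and Eda2r were dim in MHs and read 37.8 and 29.2 in Sox9+EpCAM- cells, with no fold. Of 31 adaptors and signalling proteins, 30 were well above background on at least 1 array, with a median of 0.19 over the 28 measured on both. Of the 30, 1 was at least 4-fold higher (Tab3) and 0 lower, which is near the shares over all genes. At 2-fold, 6 were higher and 2 lower, among them Birc2 (3.98-fold) and Tab1 (3.28-fold) on the higher side and Daxx (3.14-fold) on the lower. Tab3, a subunit of the TAK1 kinase complex, was dim in MHs at 7.12 and read 713 in Sox9+EpCAM- cells, at least 17.1-fold higher. At their brightest probes, Tradd had a log2 difference of -0.26, Traf2 of 0.32, Fadd of -0.21, Casp8 (the initiator caspase) of 0.23 and Cflar (its inhibitor FLIP) of -0.01, although the 4 probes of Cflar ranged from -1.38 to 0.09. Ripk1, the kinase that links TNF receptor 1 to survival or death, read 672 and 3550, a difference of 1.82, or 3.53-fold. Tnfaip3, the inhibitor A20 of NF-kB, was dim in MHs at 6.74 and read 57.9 in Sox9+EpCAM- cells, at least 1.39-fold higher.

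Of 8 NF-kB subunits and kinases, all measured on both arrays, 2 were at least 4-fold higher and 1 lower. Nfkb2, the subunit of the non-canonical pathway that Fn14 and the lymphotoxin beta receptor use, read 351 and 3160, or 6.01-fold higher. Rela, the canonical subunit p65, read 155 and 1020, or 4.39-fold higher. Ikbkb, the kinase that releases NF-kB, read 2500 and 522, or 7.17-fold lower. Of 21 genes known to be induced by TNF, 19 were well above background on at least 1 array, 9 were at least 4-fold higher and 1 was lower, with a median of 2.42 over the 15 measured on both. The chemokine genes Cxcl1 (22-fold, from 677 to 22300), Cxcl10 (19.3-fold, from 141 to 4080), Ccl2 (6.39-fold) and Ccl7 (at least 6.1-fold) were higher, as were the adhesion molecule genes Icam1 (5.36-fold) and Vcam1 (9.05-fold), the NF-kB inhibitor Nfkbie (24.9-fold, from 108 to 4030), the stress gene Ier3 (156-fold, from 47.0 to 11000) and the iron-binding Lcn2 (8.97-fold). Sele, E-selectin of endothelial cells, was at least 5.76-fold lower, and Il6 and Ccl20 were dim on both arrays. At its second probe Vcam1 had a smaller log2 difference of 1.47, and the second probe of Cxcl10, dim in MHs, gave a bound of at least 1.66. Many of these genes are also induced by other cytokines and by stress.

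Of 6 genes for shedding and processing of ligands and receptors that were found on the array, Rhbdf1, a carrier of the TNF convertase, was 6.09-fold higher and Timp3, the inhibitor of that protease, 4.06-fold higher, whereas the convertase Adam17 itself differed by -0.21. The immediate early genes, which many stimuli and the isolation of cells are known to induce, were mostly higher too. Of 10 such genes 9 were at least 4-fold higher, among them Fosb (88-fold, from 393 to 51800), Junb (69.4-fold), Fos (24.4-fold), Atf3 (23.5-fold), Egr1 (21-fold), Zfp36 (11-fold), Ier2 (8.87-fold), Nr4a1 (8.29-fold) and Jun (5.61-fold), with a median of 3.93 over all 10. Their part in the Tnfrsf12a and TNF-induced gene values was not tested.

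**Figure D5:**
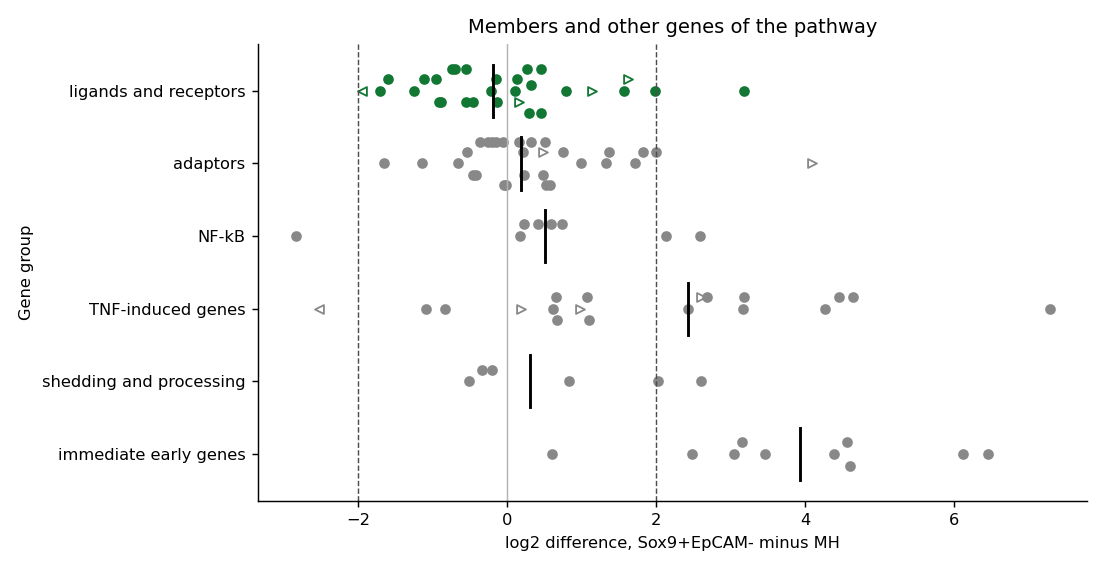
Log2 difference, Sox9+EpCAM- minus MH, of each ligand and receptor (green) and of each gene of 5 related groups (grey), with triangles for bounds, black bars at the median over genes with both values measured and dashed lines at 4-fold. The medians are -0.19 for the ligands and receptors, 0.19 for adaptors, 0.50 for NF-kB, 2.42 for TNF-induced genes, 0.31 for shedding and processing and 3.93 for immediate early genes.

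Markers of other liver cells differed between the samples beside these values. Of 10 mesenchymal markers 4 were higher in Sox9+EpCAM- cells by at least 4-fold, with summed levels of 12.7 and 45.6 times the 75th percentile, and Pdgfrb was dim on both arrays. Of 8 cholangiocyte markers 2 were at least 4-fold higher, with sums of 2.28 and 48.9, and Tspan8 was dim on both. Such sums follow the brightest probes of a list. Spp1 read 258 and 47000, Krt7 differed by -0.23 and Krt19 by 0.42, Cftr was 2-fold lower, and Sox9 read 60.2 in Sox9+EpCAM- cells and was dim in MHs. Of 8 macrophage markers 6 were at least 4-fold lower (sums of 34 and 13), and of 8 endothelial markers 4 were (7.73 and 2.76), with Lyve1 dim on both. The hepatocyte markers summed to 1080 and 486, with differences from -8.58 to -0.23. Of these 8, 5 were at least 2-fold lower and 2 at least 4-fold lower, Cyp3a11 (from 85800 to 337) and Tat (5.51-fold). The sort for the array is described by GFP and EpCAM, and in another FACS analysis of such mice the study first gated for CD31-CD45- cells. Pecam1, which encodes CD31, read 669 and 594. Cells of each of these types are known to express members of the superfamilies, and their part in the values of Tnfrsf12a, Tnfsf11, Tnfrsf11b and Cd40 was not tested.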

How the data were processed

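RNA of 2 samples with 1 array each were compared, MHs and Sox9+EpCAM- cells, grouped by the cell type given in the labels. The authors deposited processed spot intensities of the Feature Extraction software 10.7.3.1, corrected for background and not normalized between arrays, and a table of ratio values, in which the deposited intensity is divided by the median of its array. Labelling followed a service provider's undisclosed protocol. Probe coordinates are on mm9.

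Spots of controls and any flagged as outlying or uneven were dropped, which kept 85 of 88 member spots. Log2 intensities were set to the 75th percentile of each array, spots of a probe were averaged, and a gene was represented by its probe of highest mean level. A probe was well above background if a share of at least 0.5 of its spots was. Dim probes entered by the bound given in the text. A 4-fold difference was the size rule, with no test. Every member is accounted for, those with a probe above background by values. Of the pathway lists, genes at least 4-fold different and 7 adaptors were named, and the others named were chosen after their values were seen. The members and lists were chosen with earlier results of these data known. All 41 names are current RefSeq symbols. Promoter windows came from RefSeq (GRCm38.p6). The B cell marker list is not reported here.

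Alternatives were normexp (limma 3.58.1, R 4.3.3, offset 50), 3 other scalings, the deposited table, other probe rules, outlier spots, no bound and other fold limits. The steps were tested on simulated data, with 200 of 30167 genes changed: of these, 119 were measured in both samples of the simulation and 119 came back within 1.5-fold. The second simulated array was the MH array with known folds and log2 noise of 0.1. The simulation therefore checks the calculation and does not cover differences between samples or disagreement between probes. Python 3.11.15 with pandas 2.3.3 was used.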

Additional observations from a re-analysis of the deposited data

How the results depend on the processing

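Tnfrsf12a was at least 4-fold higher under every scaling, background correction, probe rule and filter tried, and it was not at the 10-fold limit, which left 0 members higher. The count of higher members was 2 with scaling to Gapdh (Tnfrsf23 added) and 2 without the bound for dim probes (Cd40 added), and 5 at 2-fold. The count of lower members, 0 in the report, was 1 with quantile normalization, 1 with the deposited table and 1 without the bound (Tnfsf11 each time), 1 with the probe of largest difference (Tnfrsf14), and 5 at 2-fold. The median of the members ran from -0.39 with the probe of largest difference to 0.08 with scaling to Gapdh, under which the median over all genes moved by 0.27 to 0.07. The sign of a difference turned in 3 of 30 members under scaling to Gapdh, 3 of 29 under quantile normalization (among them Tnfrsf9, from -0.56 to 0.05), 2 of 29 with the deposited table, 1 of 29 under normexp and 2 of 30 under each other probe rule (Tnfrsf1a and Tnfsf12). Normexp, with its offset of 50, brought the differences of 5 members (Lta, Cd40, Tnfsf11, Tnfrsf11b and Tnfrsf23) nearer to 0 by over 1.5-fold, and gave 612 genes higher and 660 lower over the whole array instead of 1309 and 1304. Without the bound the whole-array count of higher genes was 1949. With only genes well above background on both arrays the whole-array counts were 758 and 914. The cause was not tested. No paired analysis was possible because there is 1 array for each group, and for the same reason the slide was not fitted as a block and no replicate was left out. Members near the lowest measurable signal, such as Tnfsf11, Cd40 and Lta, have only bounds, and the precision of all values is limited by having 2 arrays.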

Other observations

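Genes named for their relation to the superfamilies but outside the rule were read after their values were seen. Rell1 and Rell2, homologues of the receptor RELT, were both above the 4-fold limit in Sox9+EpCAM- cells. Rell1 read 129 in MHs and 1330 in Sox9+EpCAM- cells, or 6.88-fold, and Rell2 read 35.6 and 668 at its brighter probe, or 12.5-fold, and its other probe, dim in MHs, was higher by at least 4.84 on the log2 scale. Of 8 genes of the C1q and TNF related (C1qtnf) family, which share the fold of the TNF ligands, 7 were well above background on at least 1 array and 1 was at least 4-fold lower, C1qtnf9, which read 76.4 in MHs and was dim in Sox9+EpCAM- cells, at least 6.22-fold lower. C1qtnf7 had probes in opposite directions, with a log2 difference of -0.88 at the brighter one and of at least 2.41 at the other, which was dim in MHs. Of 8 Tnfaip genes, named for induction by TNF, 7 were well above background on at least 1 array, 0 were at least 4-fold higher and 1 was lower. It was Tnfaip8l2, a regulator of immune cells, which read 147 in MHs and was dim in Sox9+EpCAM- cells, at least 12-fold lower. Tnfaip1 was at least 3.82-fold higher. No test is possible with 1 array per group.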
